A study of Mus musculus with 38 samples.

Results

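Inhibitory transmission was followed through 26 genes of the synthesis, transport and reception of the transmitters GABA and glycine, read out of a table of 25230 genes by their symbols. All 26 were found and all 26 passed the filter on low counts, which left 16309 genes in the tests. They fall into 7 roles: 3 genes of synthesis and vesicle loading, 2 of uptake and breakdown, 11 subunits of the GABAA receptor, 2 of the GABAB receptor, 4 of the glycine receptor, 2 of scaffold and adhesion and 2 of chloride transport. RNA was sequenced from microdissected anterodorsal bed nucleus of the stria terminalis of wild-type (WT) mice, with poly-A enriched, stranded libraries. The 4 groups were control females (10 libraries), stressed females (9), control males (10) and stressed males (9). Stressed mice went through 6 weeks of chronic variable mild stress, in which light, bedding, temperature, swimming, isolation, restraint and other mild stressors came in random order; the labels do not state ages or how many mice went into a library. Because no label ties a library to its own animal, p-values measure the spread between these libraries.

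GABA is made from glutamate by the decarboxylases Gad1 and Gad2, loaded into vesicles by Slc32a1, and cleared by transporters and by the aminotransferase Abat. At the synapse it opens the chloride channel of the GABAA receptor, a ring of subunits whose mix sets affinity, kinetics and place, and it acts more slowly through the G-protein coupled GABAB receptor. The bed nucleus is a relay between the amygdala, the hypothalamus and the midbrain, and most of its projection neurons and local neurons release GABA.

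Total counts per library ranged from 9064136 to 84842828, with a median of 27323060. Levels are given in counts-per-million (CPM), computed here on library sizes scaled by TMM. Transcripts used as marks of the bed nucleus were found in every library, with Lhx6 at 40.5 to 95.9 CPM and Crh at 4.72 to 39.3 CPM. The other marks were Esr1 at 2.54 to 40.7 CPM, Tac2 at 35 to 123 and Npy at 39.2 to 218. Libraries numbered up to 5 (20) and from 6 (18) in the labels differed from each other in 45.5% of all genes tested, although the labels do not call these sets a batch; both sets hold libraries of all 4 groups. A set of 5 libraries stood apart from the rest by their myelin transcripts (female control 1 and 6, male control 3, female stressed 1 and 2): the summed CPM of 5 oligodendrocyte genes was 19198 to 24111 there and 3988 to 14550 elsewhere. The summed CPM of the bed nucleus marks was 292 to 394 in these 5 libraries and 155 to 280 elsewhere. Male stressed 5 held choroid plexus transcripts. Without male stressed 5, 0 members were called for stress or sex and 14 for library number, as with it. Values without the 5 libraries rich in myelin transcripts are given for some members only. Other members whose levels differed there have no such log2 change below. Glra3, for example, ran from 5.94 to 22.0 CPM in these 5 (median 38.6 in the other 33) and Gabrg3 from 48.1 to 59.5 (median 81.6).

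Per length of exon, Gad2 stood first among the 26, at 169 ± 28.5 CPM per kilobase (SD over all 38 libraries), above 99.2% of the tested genes. Gabbr1 followed at 116 ± 14.2 CPM per kilobase and was above the next gene, Slc12a5, in 38 of 38 libraries. Slc12a5 (90.4 ± 12.8), Abat (88.8 ± 7.23) and Gad1 (87.1 ± 10.2) did not differ in level beyond their spread, since each was above the next in 20 and 21 of 38 libraries. Slc32a1 came next at 79.5 ± 15.3 CPM per kilobase. At the other end stood the glycine receptor subunit Glra3 at 4.02 ± 1.83 and the GABAA subunit Gabre at 2.33 ± 1.32 CPM per kilobase. The glycine receptor subunit Glra1 was lowest, at 0.861 ± 0.755. In that order these genes were above 44.4%, 33% and 19% of the tested genes.

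**Figure D1:**
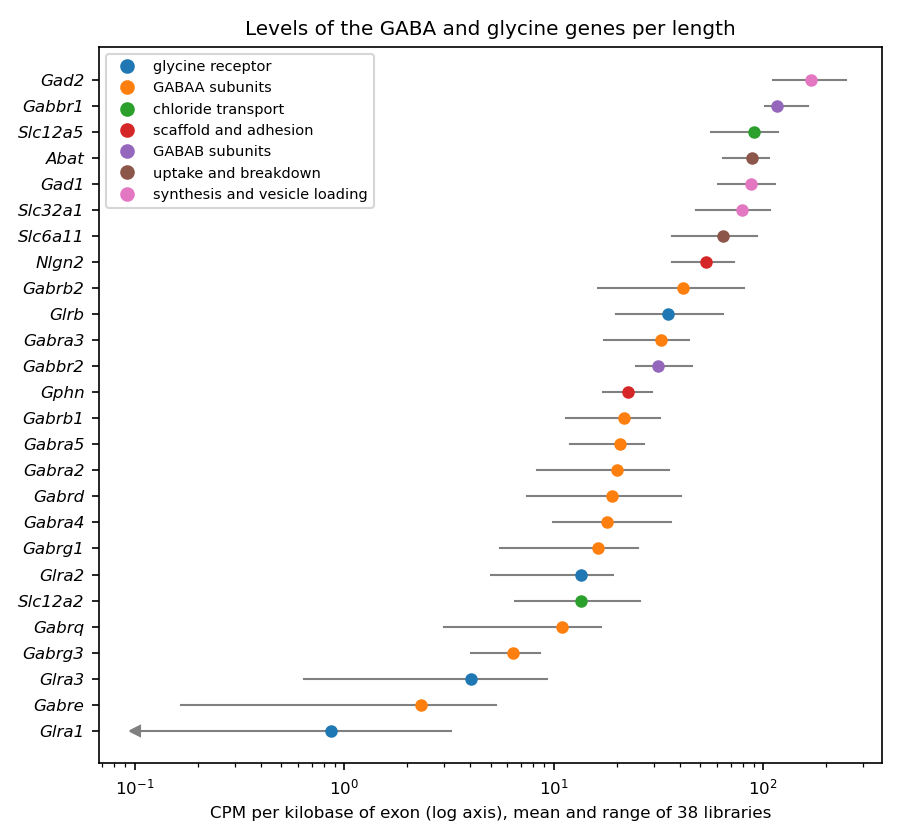
Mean level of each of the 26 genes in CPM per kilobase of exon on a log axis, coloured by role; grey lines run from the lowest to the highest of the 38 libraries, and the arrow marks Glra1, which had 0 counts in 2 libraries. The synthesis and uptake genes, Gabbr1 and Slc12a5 fill the top of the order, from 169 (Gad2) down, and the GABAA subunits spread from 41.4 (Gabrb2) to 2.33 (Gabre).

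None of the 26 genes passed the test for stress. In females and in males, 0 of 26 had an adjusted p under 0.05 by edgeR's quasi-likelihood test, where 0% of all genes were called in each sex; in the interaction (the effect in males minus that in females) and in the average over the sexes, 0 of 26 were called as well, against 0% of all genes. At an unadjusted p under 0.05 the count of members was 0 of 26 in each of these 4 contrasts by edgeR, where 1.89% (females), 4.02% (males), 4.51% (interaction) and 1.47% (average) of all genes passed. It was 0 by DESeq2 too, and 1, 1, 0 and 1 by limma voom. With a term for the number set in edgeR it was 1 in females (Slc12a2) and 2 in males (Gabrd and Gabre). For the interaction it was 1 (Slc12a2) and for the average 0. In all 4 contrasts 0 of 26 were under an adjusted p of 0.05 with that term. The shares of all genes with that term and by DESeq2 or limma voom are not given here. The adjusted p was 1 for every member in females, at least 0.863 in males, at least 0.845 for the interaction and 1.00 for the average. In females 14 of 26 log2 changes were above 0, with a median of 0.0076 (0.0098 over all genes tested, of which 53.6% were above 0). In males 21 of 26 were above 0, with a median of 0.097 (-0.022 over all genes, of which 45% were above 0), but the count was 12 of 26 among the libraries numbered up to 5 and 24 of 26 among those from 6. In the average of the sexes 22 of 26 were above 0, beside 48.4% of all genes, but 13 of 26 had the other sign among the libraries up to 5. For each of the 26 genes the range of stressed libraries overlapped that of the controls of the same sex; of all genes tested, 0% in females and 0.00613% in males did not overlap.

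**Figure D2:**
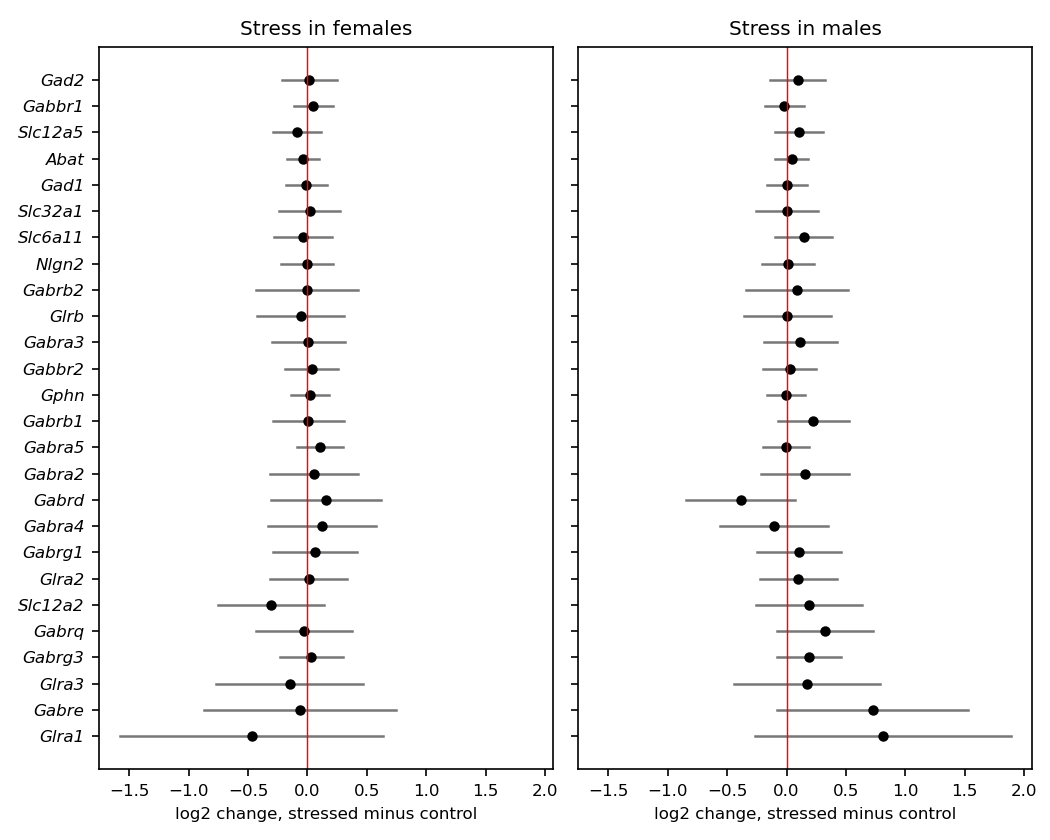
Log2 change of each gene, stressed minus control, in females (left) and males (right), with 95% intervals, from edgeR's fit over all 38 libraries; genes are in order of level per kilobase. Every interval crosses 0, and the widest belong to the genes lowest in level, with Glra1 from -0.26 to 1.89 in males.

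Sex gave the same count. Of the 26 genes, 0 were called in controls, against 0.0674% of all genes, 0 in stressed mice, against 0.0858%, and 0 in the average over conditions, against 0.215%, by edgeR; DESeq2 and limma voom also called 0 of 26 in all 3. At an unadjusted p under 0.05 there were 1, 2 and 1 members by edgeR, beside 4.16%, 11.1% and 9.6% of all genes. With the number-set term there were 1, 4 and 2 members (shares of all genes not given here), none of them called. Among these Gabra5, a GABAA subunit known outside the synapse in the hippocampus, was 0.26 ± 0.093 (log2 ± SE) higher in control males than in control females (p = 0.0082, adjusted p = 0.816 by edgeR) and 0.20 ± 0.068 higher in the average (p = 0.0047, adjusted p = 0.330). Its level in control females ran from 35.6 to 66.1 CPM, median 58.5, and in control males from 52.4 to 80.7, median 65.3. In stressed females it ran from 41.8 to 70.0 CPM, median 60.7, and in stressed males from 60.1 to 73.7, median 64.8. Male levels overlapped female levels in both conditions. Within the number sets the difference in controls was 0.23 ± 0.13 (up to 5) and 0.31 ± 0.13 (from 6), and without the libraries rich in myelin transcripts it was 0.23 ± 0.083.

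Of the genes of synthesis and vesicle loading, Gad1, the decarboxylase known to make most basal GABA, varied least, with an SD within groups of 0.17 on the log2 scale (0.25 for Gad2 and 0.29 for Slc32a1). Control females ran from 530.9 CPM through a median of 668 to 719, and stressed females from 536 through 651 to 704. In control males it ran from 464 through 695 to 872 CPM, and stressed males from 623 through 697 to 790. The ranges of stressed and control libraries overlapped almost wholly. The log2 change with stress was -0.011 ± 0.085 in females and 0.0034 ± 0.085 in males, with 95% intervals of -0.18 to 0.16 and -0.17 to 0.17, and the interaction was 0.015 ± 0.12. The change was -0.0039 ± 0.060 in the average of the sexes. Male minus female was 0.095 ± 0.083 in controls, 0.11 ± 0.087 in stressed mice and 0.10 ± 0.060 in the average.

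Gad2, the decarboxylase held at nerve terminals, ran in control females from 658 CPM through a median of 1007 to 1179 and in stressed females from 695 through 984 to 1196. In control males it ran from 663 through 1016 to 1468 CPM and in stressed males from 931 through 1079 to 1266. Again the groups overlapped. Its log2 change with stress was 0.015 ± 0.12 in females, 0.095 ± 0.12 in males and 0.055 ± 0.081 in the average, and the interaction was 0.080 ± 0.16. Male minus female was 0.083 ± 0.11 in controls, 0.16 ± 0.12 in stressed mice and 0.12 ± 0.081 in the average.

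Slc32a1, the vesicular transporter that loads GABA and glycine alike, lies at chr2:158610767-158615748 on the plus strand (GRCm38, GENCODE M21). Control females ran from 155 CPM through a median of 206 to 294 and stressed females from 179 through 206 to 292. Among control males the range was 161 through 230.2 to 302 and stressed males from 133 through 236 to 297. Stressed and control ranges overlapped in both sexes. The log2 change with stress was 0.017 ± 0.13 in females, 0.0052 ± 0.13 in males and 0.011 ± 0.091 in the average, the interaction was -0.012 ± 0.18, and male minus female was 0.14 ± 0.12, 0.13 ± 0.13 and 0.14 ± 0.091 in controls, stressed mice and the average. Of its exon length, 24.92% overlaps the gene Gm14205 on the other strand; no label gives the strand setting of the counting, so reads of the pair may not be told apart.

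Uptake and breakdown were represented by Slc6a11, a GABA transporter found mainly on astrocytes, and by Abat, which breaks GABA down in mitochondria. Abat varied least of all 26 genes: the SD of its log2 level within groups was 0.12, at percentile 1.38 of the tested genes, whose median SD was 0.34. It ran from 499 to 825 CPM over the 38 libraries. In controls it had the smallest p of any member with lower values in males (male minus female -0.084 ± 0.066, p = 0.210, adjusted p = 1.00 by edgeR). Slc6a11 ran from 185 to 474 CPM and its log2 change with stress was -0.036 ± 0.12 in females and 0.14 ± 0.12 in males.

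Among the 11 GABAA subunits, 8 had log2 changes above 0 with stress in females and 8 in males, none of them called. Gabrd, the delta subunit of receptors outside synapses that sense ambient GABA and neurosteroids, ran in control females from 31.1 CPM through a median of 49.9 to 117 and in stressed females from 33.3 through 51.9 to 111. In control males it ran from 37.3 through 54.4 to 79.8 and in stressed males from 21.4 through 45.8 to 57.6. The groups overlapped, and the lowest library was a stressed male. Its log2 change was 0.16 ± 0.23 in females and -0.39 ± 0.23 in males (p = 0.098, adjusted p = 0.863 by edgeR). The interaction was -0.54 ± 0.32 (p = 0.099, adjusted p = 0.845), the stress average -0.12 ± 0.16 and male minus female -0.53 ± 0.23 in stressed mice (p = 0.030, adjusted p = 0.403). In controls male minus female was 0.016 ± 0.22, and in the average it was -0.26 ± 0.16. Within the number sets the female change went opposite ways, 0.49 ± 0.20 among libraries up to 5 and -0.47 ± 0.32 among those from 6, while in males it was -0.32 ± 0.20 and -0.55 ± 0.32. Without the 5 libraries rich in myelin transcripts, male minus female in stressed mice was -0.21 ± 0.19, in place of -0.53 ± 0.23, and the stress change was 0.099 ± 0.20 in females and -0.31 ± 0.18 in males. With the number-set term the male change was -0.43 ± 0.20 (p = 0.040, adjusted p = 0.652 by edgeR). Of the genes of striatal projection neurons, none of them called for stress, 5 of 5 had log2 changes above 0 with stress in females and 0 of 5 in males, and 0 of 5 were above 0 for male minus female in stressed mice. Their summed level ran from 719 through a median of 1139 to 2928 CPM in control females, 694 through 1480 to 3339 in stressed females, 558 through 1068 to 2323 in control males and 381 through 1191 to 1332 in stressed males. Other lists also had all their genes on 1 side. With stress, 4 of 4 septal genes were above 0 in both sexes and 0 of 5 oligodendrocyte genes in either. In females 4 of 4 ependymal genes were above 0, but 0 of 4 glutamatergic, 0 of 3 oligodendrocyte precursor and 0 of 4 endothelial genes. In males 4 of 4 glutamatergic, 3 of 3 thalamic and 4 of 4 choroid plexus genes were above 0. These last 3 lists and the 4 microglial genes were also wholly above 0 for male minus female in stressed mice. The part of the marker transcripts in the values of Gabrd was not tested.

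Gabre, Gabra3 and Gabrq, the epsilon, alpha 3 and theta subunits, form a cluster on the X chromosome, at chrX:72255999-72274803 (minus strand), chrX:72432681-72656848 (minus) and chrX:72825178-72842602 (plus) on GRCm38 in GENCODE M21. Receptors with epsilon or theta subunits are known from the hypothalamus, the locus coeruleus and nearby nuclei. The runs just upstream of the 3 starts are printed because the levels of these genes moved together across libraries (r values below). They come from RefSeq's GRCm38.p6, 5′ to 3′ on each gene's own strand, at chrX:72274829-72274971, chrX:72656920-72657169 and chrX:72824928-72825162 in that order. Capitals mark matches, on either strand, to the TATA box TATAAA, the CCAAT box CCAAT or the GC box GGGCGG.
Gabre: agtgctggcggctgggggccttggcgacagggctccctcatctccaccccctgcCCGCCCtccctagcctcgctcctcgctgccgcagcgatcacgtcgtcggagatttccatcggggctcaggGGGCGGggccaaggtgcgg
Gabra3: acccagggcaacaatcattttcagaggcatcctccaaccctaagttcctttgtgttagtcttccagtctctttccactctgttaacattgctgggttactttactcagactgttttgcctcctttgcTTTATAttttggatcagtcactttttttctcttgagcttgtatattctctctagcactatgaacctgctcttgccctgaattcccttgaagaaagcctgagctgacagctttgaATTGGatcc
Gabrq: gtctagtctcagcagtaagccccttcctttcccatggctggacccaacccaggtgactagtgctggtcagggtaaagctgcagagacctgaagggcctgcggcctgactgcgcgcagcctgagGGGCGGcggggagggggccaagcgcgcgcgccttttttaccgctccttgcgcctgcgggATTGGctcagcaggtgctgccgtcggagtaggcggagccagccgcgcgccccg

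Those 3 runs differ in base make-up: G and C made up 72% of the Gabre run and 67.7% of the Gabrq run but 42.4% of the Gabra3 run. The GC box stood in the Gabre and Gabrq runs, the CCAAT box in those of Gabra3 and Gabrq and the TATA box in that of Gabra3. Of the 26 genes, 22 had at least 1 RefSeq window of 300 bases around the start. A member was counted as holding a box if any of its windows did, while the share over all genes was taken per window. These shares are therefore unlike measures and are not compared. By gene, 16 of 22 (72.7%) held a GC box, 10 (45.5%) a CCAAT box and 4 (18.2%) a TATA box. Over 32851 windows of all genes the shares were 35.7%, 37.4% and 13.6%. The cAMP response element TGACGTCA was in 0 of 22 genes (1.79% of all windows), and the palindromic glucocorticoid response element in 0 of 22 (0.00913% of all windows). Such a match is a description of letters only.

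Gabre varied more across libraries than any other GABAA subunit, with a range of 31.9-fold and a within-group SD of 1.08 on the log2 scale. Control females ran from 2.22 CPM through a median of 10.8 to 21.5, and stressed females from 0.785 through 8.95 to 22.5. The range in control males was 4.17 through 8.17 to 18.3 and stressed males from 8.40 through 15.2 to 25.0. Stressed males sat higher than control males but overlapped them. The log2 change in males was 0.72 ± 0.40 (p = 0.077, adjusted p = 0.863 by edgeR) and in females -0.063 ± 0.40. In males it was 0.73 ± 0.48 within the libraries up to 5, 0.81 ± 0.41 within those from 6, and 0.66 ± 0.28 (adjusted p = 0.712 by edgeR) without the libraries rich in myelin transcripts, where Gabre ran from 0.785 to 4.69 CPM. With the number-set term it was 0.77 ± 0.32 (p = 0.023, adjusted p = 0.652 by edgeR). In males 0 of 5 oligodendrocyte and 0 of 5 striatal genes had log2 changes above 0 with stress. By contrast, 4 of 4 glutamatergic, 4 of 4 septal, 3 of 3 thalamic and 4 of 4 choroid plexus genes were above 0. The remaining lists were mixed. The part of these transcripts in the value of Gabre was not tested. Gabra3 ran from 68.6 to 173 CPM over all libraries and Gabrq from 16.0 to 90.3, with log2 changes in males of 0.12 ± 0.15 and 0.32 ± 0.20.

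On chromosome 5 lie Gabrg1 (chr5:70751047-70842617), Gabra2 (chr5:70957597-71095849), Gabra4 (chr5:71569749-71658308) and Gabrb1 (chr5:71658113-72149037). Gabra4 and Gabrb1 start head to head, and their exons overlap on opposite strands over 0.76% and 0.33% of their lengths. Gabra2, the alpha 2 subunit found at perisomatic and axonal synapses, ran in control females from 86.2 CPM through a median of 164 to 185 and in stressed females from 121 through 158 to 201. In males, controls ran from 72.7 through 145 to 222 and stressed males from 63.6 through 160 to 272. Male ranges were wider than female ranges and the groups overlapped. The log2 change with stress was 0.058 ± 0.18 in females, 0.16 ± 0.18 in males and 0.11 ± 0.13 in the average, the interaction was 0.10 ± 0.26, and male minus female was -0.058 ± 0.18 in controls, 0.043 ± 0.19 in stressed mice and -0.0071 ± 0.13 in the average.

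Of the other subunits, Gabrb2 was the GABAA subunit with the highest level per kilobase, at 41.4 ± 13.3, and its log2 change with stress was -0.0044 ± 0.21 in females and 0.088 ± 0.21 in males. Gabrg3, a gamma subunit that lies beside Gabra5 on chromosome 7, had the smallest p for a higher value in the stress average, 0.11 ± 0.094 (p = 0.247, adjusted p = 1.00 by edgeR). In stressed females against controls the smallest p with a higher value was that of Gabra5, 0.11 ± 0.096 (p = 0.268). Gabra4, Gabrb1 and Gabrg1 had changes of 0.12 ± 0.22, 0.0085 ± 0.15 and 0.063 ± 0.17 in females and of -0.11 ± 0.23, 0.22 ± 0.15 and 0.10 ± 0.17 in males.

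The GABAB receptor works as a pair of Gabbr1, which binds GABA, and Gabbr2, which couples to G proteins. Gabbr1 ran from 793 to 1277 CPM and Gabbr2 from 165 to 307 CPM over the 38 libraries. The highest Gabbr1 values came from the libraries rich in myelin transcripts, which ran from 921 to 1277 CPM against 793 to 943 in the other 33. The log2 change with stress was 0.050 ± 0.082 and 0.035 ± 0.11 in females and -0.018 ± 0.082 and 0.025 ± 0.11 in males for Gabbr1 and Gabbr2. Without the libraries rich in myelin transcripts it was -0.010 ± 0.050 and 0.016 ± 0.10 in females and -0.0045 ± 0.046 and 0.068 ± 0.095 in males. Within a library, the log2 ratio of Gabbr1 to Gabbr2 was 2.15 ± 0.20 (SD, n = 10) in control females, 2.15 ± 0.21 (n = 9) in stressed females, 2.10 ± 0.21 (n = 10) in control males and 2.05 ± 0.19 (n = 9) in stressed males.

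Glycine receptors are channels of alpha subunits with the beta subunit Glrb, which ties them to gephyrin. Glrb had the highest level of the 4, 35.0 ± 9.86 CPM per kilobase, and Glra2, the subunit known from immature neurons, was the highest of the alphas at 13.5 ± 3.14. Glra1, the alpha of the adult spinal cord, was near its floor: it had 0 counts in 2 stressed female libraries, both rich in myelin transcripts, and at most 7.83 CPM elsewhere. Control females ran from 0.342 CPM through a median of 1.44 to 6.42, and stressed females from 0 through 1.44 to 3.93. Control males ran from 0.115 through 1.53 to 4.02 and stressed males from 1.32 through 2.59 to 7.83. The stressed males sat highest and overlapped all other groups. Glra1 was 1.27 ± 0.56 higher (log2) in stressed males than in stressed females (p = 0.029, adjusted p = 0.400 by edgeR), its interaction was 1.28 ± 0.77 (p = 0.101) and its change with stress was -0.47 ± 0.55 in females and 0.81 ± 0.53 in males. The sex difference of Glra1 in stressed mice was 1.31 ± 0.73 and 1.26 ± 0.62 within the number sets and 0.96 ± 0.48 without the libraries rich in myelin transcripts. Glra3 had a log2 change of -0.15 ± 0.30 in females and 0.17 ± 0.30 in males.

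Gphn encodes gephyrin, the scaffold that anchors GABAA and glycine receptors, and Nlgn2 a cell adhesion protein of inhibitory synapses. Gphn ran in control females from 69.0 CPM through a median of 81.5 to 92.0 and in stressed females from 74.2 through 83.5 to 92.0. Control males ran from 64.4 through 83.4 to 111 and stressed males from 76.8 through 84.6 to 103. Each pair of ranges overlapped almost wholly. The log2 change was 0.021 ± 0.080 in females, -0.0027 ± 0.080 in males and 0.0091 ± 0.057 in the average, the interaction was -0.024 ± 0.11, and male minus female was 0.097 ± 0.078, 0.073 ± 0.082 and 0.085 ± 0.057 in controls, stressed mice and the average. Nlgn2 had changes of -0.0057 ± 0.11 in females and 0.012 ± 0.11 in males.

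The chloride gradient that decides whether GABA inhibits is set by Slc12a2 (NKCC1), which brings chloride in, and Slc12a5 (KCC2), the neuronal exporter. Slc12a2 ran in control females from 101 CPM through a median of 157 to 230.4 and in stressed females from 101 through 119.7 to 183. Control males ran from 71.6 through 139.6 to 229 and stressed males from 92.0 through 161 to 282. Groups overlapped in both sexes. In stressed females its log2 change of -0.30 ± 0.22 (p = 0.177, adjusted p = 1 by edgeR) was the smallest p with a lower value. In males the change was 0.19 ± 0.22, the interaction 0.49 ± 0.31 and the stress average -0.058 ± 0.16. Slc12a2 had the smallest p of all members between the number sets, and with a term for the set the female change was -0.32 ± 0.16 (p = 0.048, adjusted p = 1 by edgeR) and the interaction 0.47 ± 0.22 (p = 0.040, adjusted p = 0.696). Within the sets the female change was -0.40 ± 0.20 (up to 5) and -0.22 ± 0.21 (from 6), and without the libraries rich in myelin transcripts it was -0.32 ± 0.26. The interaction was 0.54 ± 0.29 and 0.34 ± 0.29 within the sets and 0.49 ± 0.36 without those libraries. Male minus female was -0.16 ± 0.21 in controls, 0.33 ± 0.23 in stressed mice and 0.082 ± 0.16 in the average.

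Slc12a5 ran in control females from 607 CPM through a median of 658 to 877 and in stressed females from 574 through 673 to 766. Control males ran from 419 through 629 to 832 and stressed males from 510.1 through 734 to 814. The ranges overlapped, and control males held the lowest library. Its log2 change was -0.087 ± 0.10 in females, 0.10 ± 0.10 in males and 0.0079 ± 0.071 in the average, and the interaction was 0.19 ± 0.14. Male minus female was -0.12 ± 0.098 in controls, 0.075 ± 0.10 in stressed mice and -0.021 ± 0.071 in the average. The log2 ratio of Slc12a2 to Slc12a5 within a library was -2.19 ± 0.57 (SD, n = 10) in control females, -2.38 ± 0.39 (n = 9) in stressed females, -2.30 ± 0.83 (n = 10) in control males and -2.19 ± 0.77 (n = 9) in stressed males.

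Ratios within a library take out differences in the amount of RNA per library. The 4 ratios tested (Slc12a2 to Slc12a5, Gad1 to Gad2, Gabbr1 to Gabbr2 and Glra3 to Glra2) were each compared for stress in each sex and for sex in each condition, 16 two-sided permutation tests in all, exact where a group had 9 libraries. None passed after Benjamini-Hochberg adjustment. The smallest p were those of Glra3 to Glra2, higher by 0.42 in stressed males than in stressed females (exact permutation p = 0.078, adjusted 0.657), and of Gad1 to Gad2, where stressed males minus control males was -0.10 (exact permutation p = 0.0822, adjusted 0.657). Within the number sets the Gad1 to Gad2 difference was -0.088 and -0.10, and the Glra3 to Glra2 difference 0.50 and 0.34. Female stressed 1 and 2, both rich in myelin transcripts, had the lowest Glra3 to Glra2 ratios of the stressed females (-1.29 and -1.51). The other stressed females ran from -1.03 to 0.25, and stressed males from -0.54 to 0.36. Other differences had opposite signs in the sets up to 5 and from 6. These were Slc12a2 to Slc12a5 by sex in controls (0.16 and -0.40) and in stressed mice (0.57 and -0.27), and Gabbr1 to Gabbr2 for stress in females (0.081 and -0.12). Glra3 to Glra2 did so for stress in males (-0.077 and 0.34) and by sex in controls (0.32 and -0.13). So did Gad1 to Gad2 for stress in females (0.020 and -0.085) and by sex in controls (-0.00080 and 0.014).

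The number in the library's label went with far more of these genes than stress or sex did. Of the 26, 14 (53.8%) were called between libraries numbered from 6 and those up to 5 within groups by edgeR, 7 higher and 7 lower, against 45.5% of all genes tested (23.2% higher and 22.3% lower). The share in the members was thus near that of all genes, and their median change was -0.0060 (0.011 over all genes). DESeq2 called 14 and limma voom 17. Without the 5 libraries rich in myelin transcripts 18 of 26 were called. The shares of all genes in these other fits are not given here, so these counts are not read as a result about the members.

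Among the 7 that were lower from number 6 on, the chloride importer Slc12a2 fell by 0.70 ± 0.11 on the log2 scale (adjusted p = 3.9e-06 by edgeR). It ran from 108 CPM through a median of 179 to 282 in libraries up to 5 and from 71.6 through 105 to 180.1 in those from 6. The sets overlapped. The subunits Gabra4 (-0.69 ± 0.12, adjusted p = 1.1e-05) and Gabrb2 (-0.66 ± 0.11, adjusted p = 7e-06) had like changes, and Glrb was -0.53 ± 0.098 (adjusted p = 3.8e-05). Gabra4 ran from 77.4 through 135 to 220.1 CPM up to 5 and from 60.6 through 80.5 to 108 from 6. Gabrd (-0.48 ± 0.15, adjusted p = 0.0071), Gabra2 (-0.35 ± 0.12, adjusted p = 0.014) and Gphn (-0.15 ± 0.051, adjusted p = 0.018) were lower by less.

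Higher from number 6 on were Glra1 (1.16 ± 0.34, adjusted p = 0.0049 by edgeR) and Gabre (1.03 ± 0.23, adjusted p = 0.00037), both low in level. Also higher were the loaders and transporters Slc32a1 (0.33 ± 0.073, adjusted p = 0.00030), Slc6a11 (0.32 ± 0.068, adjusted p = 0.00022) and Slc12a5 (0.25 ± 0.058, adjusted p = 0.00072). Gabre ran from 0.785 through a median of 7.90 to 15.2 CPM up to 5 and from 2.29 through 15.2 to 25.0 from 6. Slc32a1 ran from 133 through 194 to 271 CPM and from 188 through 250.0 to 302. The sets overlapped for both genes. The X-linked subunits Gabra3 (0.31 ± 0.095, adjusted p = 0.0079) and Gabrq (0.36 ± 0.13, adjusted p = 0.023) were higher too; Gabrq was not called without female control 10 (adjusted p = 0.053). Gad1, at 0.0022 ± 0.059, and Gad2, at -0.058 ± 0.081, did not pass, and their ranges overlapped widely between the sets. The log2 ratio of Slc12a2 to Slc12a5 was -1.82 ± 0.44 (SD, 20 libraries) up to 5 and -2.76 ± 0.44 (18 libraries) from 6. Counted by group, 0 of 26 genes had no overlap between the sets in the same direction in at least 3 of the 4 groups, against 3.04% of all genes tested.

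**Figure D3:**
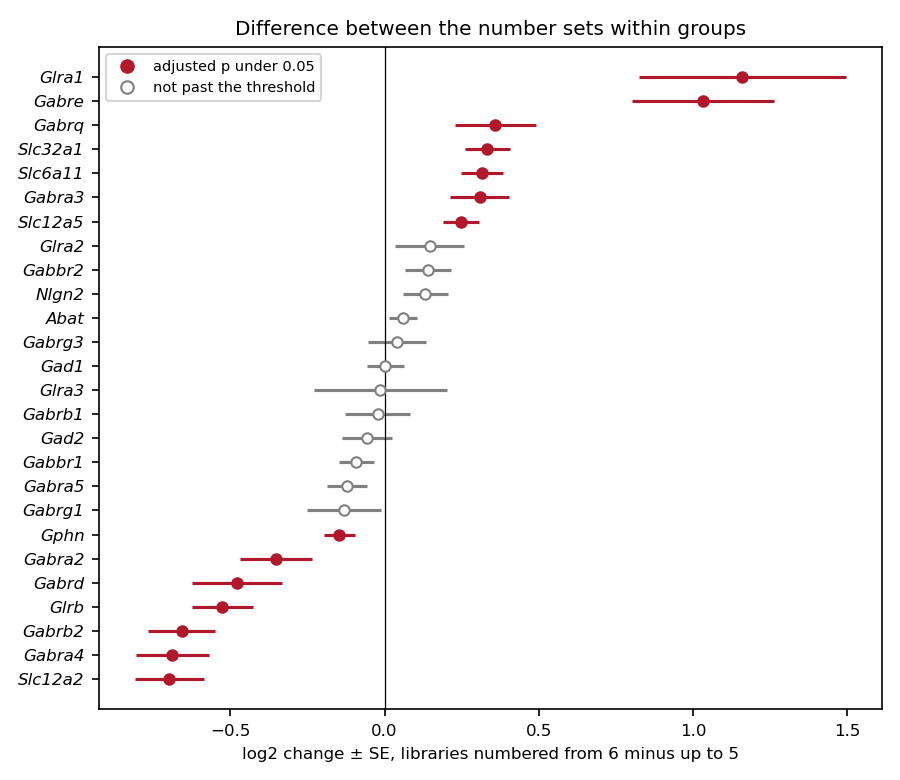
Log2 change with its SE for each gene, libraries numbered from 6 minus libraries numbered up to 5 within groups; filled points passed an adjusted p of 0.05 by edgeR. Of the filled points, 7 lie below 0, from Slc12a2 at -0.70 to Gphn at -0.15, and 7 above, from Slc12a5 at 0.25 to Glra1 at 1.16.

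**Figure D4:**
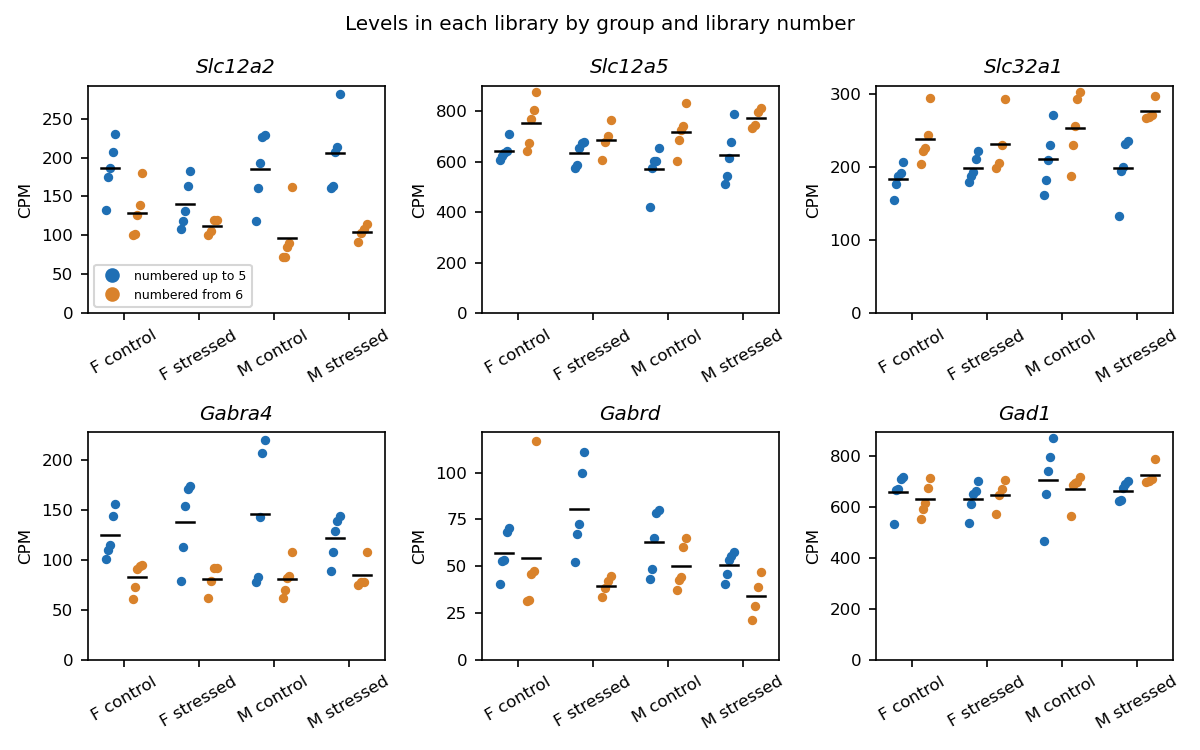
CPM of 6 genes in each library (points), by group on the horizontal axis and by library number (blue up to 5, orange from 6); black lines are means and each vertical axis starts at 0. The mean of Slc12a2 and of Gabra4 was lower, and that of Slc12a5 and of Slc32a1 higher, in the orange libraries of all 4 groups, while the colours of Gad1 overlap.

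Markers of several cell types moved with library number too. All 5 oligodendrocyte genes and all 5 genes of striatal projection neurons were called lower from number 6 on by edgeR, with a summed level of 7876 to 24111 CPM up to 5 against 3988 to 21469 from 6 for the first and 874 to 3339 against 381 to 2928 for the second. All 4 ependymal genes were called higher (17.5 to 70.2 CPM against 37.3 to 133), as were 3 of 4 septal genes (31.5 to 100 against 27.4 to 163) and 2 of 3 of oligodendrocyte precursors; 2 of 5 general neuronal genes were lower. A single gene each was higher among the 5 astrocyte, 4 microglial, 3 thalamic and 5 bed nucleus genes, and none passed on the glutamatergic, endothelial and choroid plexus lists. No marker on these lists was at 0 in every library. Rn45s, a ribosomal RNA gene, took 0.754% to 4.81% of the counts in libraries from 6. Up to 5 it took 1.09% to 2.17% in female control 1, male control 3, female stressed 1 and 2 and male stressed 5. In the other libraries up to 5 it took 0.121% to 0.311%. In bulk tissue, fewer cells of a type and less RNA per cell cannot be told apart. The part of the marker transcripts and of Rn45s in the members' differences was not tested.

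Across libraries the members did not move as 1 block. Over 38 libraries, with group means removed, the 325 pairs of genes had a median Pearson's r of 0.19 and ran from -0.87 to 0.93; libraries share their dissection, depth and number set, so these values are descriptions. The highest pair was Gabra4 with Glrb (r = 0.93), followed by Gabrb1 with Gabrg3 (0.91) and Gabrb1 with Glra3 (0.90). Gad1 and Gad2 had r = 0.87, and their r with the vesicular transporter Slc32a1 was 0.12 and -0.091. The latter differed by set: Gad1 with Slc32a1 had -0.18 among libraries up to 5 and 0.70 among those from 6. Slc32a1 and Slc12a2 ran opposite ways (r = -0.82, and -0.70 and -0.73 within the number sets).

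Genes of 1 chromosomal cluster were often close in pattern. The X-linked trio had r of 0.86 (Gabre with Gabra3), 0.83 (Gabre with Gabrq) and 0.88 (Gabra3 with Gabrq). Within the libraries numbered up to 5 these were 0.71, 0.80 and 0.83, and within those from 6 they were 0.95, 0.92 and 0.92. The 6 pairs of the chromosome 5 cluster ran from 0.43 to 0.86 with a median of 0.55; Gabra4 and Gabrb1, which start head to head, had 0.54 over all libraries and 0.78 and 0.76 within the sets. Gabra5 and Gabrg3 on chromosome 7 had 0.63. Pairs outside the clusters reached the same values, such as Gabrq with Glra2 at 0.86.

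Gabrd ran against the X-linked trio, with r = -0.87 with Gabrq, -0.85 with Gabra3 and -0.84 with Gabre, and -0.75 and -0.92 with Gabrq within the number sets. Of these 4 genes, Gabrd, Gabre and Gabrq also followed marker lists, and Gabra3 is not given here. Each list was taken as the mean log2 CPM of its genes. Gabrd had r = 0.91 with the list of striatal projection neurons (0.89 without the 5 libraries rich in myelin transcripts) and 0.79 with that of oligodendrocytes. Gabre had -0.86 with each of these lists, and Gabrq had -0.79 with the striatal list. Without the libraries rich in myelin transcripts, values for Gabre, Gabrq and the oligodendrocyte list are not given here. Gabre ran from 0.785 to 4.69 CPM in those 5 and from 4.17 to 25.0 in the other 33. Gad1 and Gad2 had -0.18 each with the striatal list over all libraries, but -0.59 and -0.56 among those from 6. These 5 striatal genes include Drd1, Drd2 and Adora2a, receptors of the medium spiny neurons that border the bed nucleus; their part in the pattern of Gabrd was not tested.

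**Figure D5:**
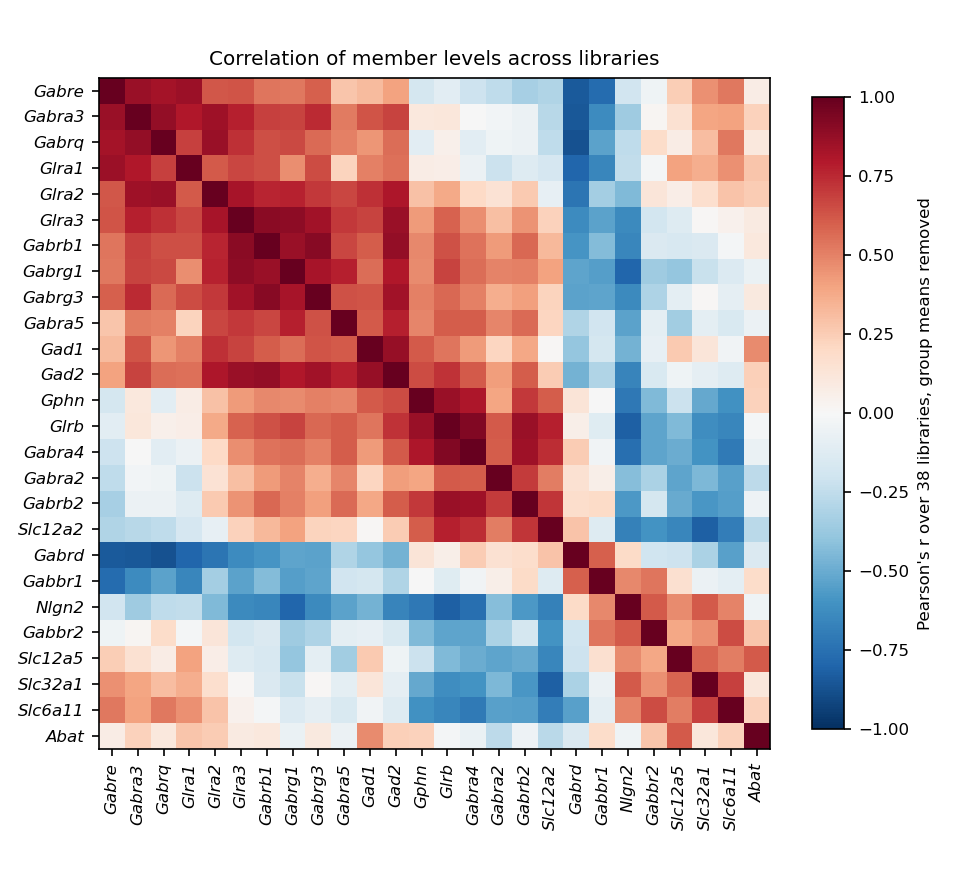
Pearson's r between each pair of the 26 genes over 38 libraries, on log2 CPM with group means removed; red is positive and blue negative. The red block at the upper left runs from the X-linked trio through the glycine receptor alphas to Gad1 and Gad2, Gabrd is blue against the trio (r = -0.87 with Gabrq), and Slc32a1, Slc6a11, Slc12a5 and Nlgn2 form a paler red block at the lower right.

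Of 50 further genes of the pathway (other receptor subunits and transporters, receptor trafficking and scaffold proteins, GABAB auxiliary subunits and chloride transport), 45 passed the filter. None of the 45 was called for stress or sex by edgeR in any of the 7 contrasts. At an unadjusted p under 0.05 the counts were 1 in females, 1 in males, 2 for the interaction and 1 for the average. Of all genes tested 1.89%, 4.02%, 4.51% and 1.47% passed in these contrasts. For sex in controls, in stressed mice and in the average the counts were 3, 6 and 6, beside 4.16%, 11.1% and 9.6%. Between the number sets 23 of 45 (51.1%) were called, 8 higher and 15 lower, beside the 45.5% of all genes. Among them Hap1, a partner of huntingtin in receptor transport, rose by 0.58 ± 0.083, and the trafficking adaptor Trak2 fell by 0.97 ± 0.15 on the log2 scale. Slc12a7, another chloride exporter, rose by 0.65 ± 0.11, and Kctd8, an auxiliary subunit of GABAB receptors, fell by 0.60 ± 0.099.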

How the data were processed

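The table holds whole-number counts of reads per gene for 38 libraries, as the authors deposited it. Reads were aligned to mm10 with STAR and counted with featureCounts, and DESeq2 was used by the submitters, per the submitters' processing notes; their versions, the annotation and the strand setting were: not given in the sources used here. Each column was matched to its library by the short name in the labels, and 0 columns of other samples were present.

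From the counts, genes were kept by edgeR's filterByExpr (16309 of 25230; 3439 had no count), library sizes were scaled by TMM, and edgeR 4.0.16 (R 4.3.3) fitted its quasi-likelihood model with 4 group means over all 38 libraries, with Benjamini-Hochberg adjustment over all tested genes and a threshold of 0.05. The number set was tested with an added 2-level term. DESeq2 1.42.0 and limma 3.58.1 (voom with quality weights) were alternatives, with other size factors, no filter, a replicate block, the number-set term, both number sets alone, left-out libraries and, for ratios, another prior count. The common biological coefficient of variation was 0.266. Ratios of log2 CPM (prior count 2) were compared by two-sided permutation tests, with all exchanges where a group held 9 libraries and 100000 resamples otherwise. Totals were 9064136 to 84842828 counts, and Rn45s, a ribosomal RNA gene, took 0.121% to 4.81% of them. Within each group no 2 libraries agreed within sampling noise (the closest pairs had a chi-square per gene of 8.19 to 19.8).

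Gene positions are from GENCODE M21 and promoter runs from RefSeq, both on GRCm38, the assembly that mm10 names; lengths are the union of exons. The scripts were tested on simulated data. The genes named in full were those past the threshold in a contrast, otherwise the smallest p in each direction, and in every contrast Gad1, Gad2, Slc32a1, Slc12a2, Slc12a5, Gabra2 and Gphn. The members, the 50 further pathway genes and the marker lists (neurons, glutamatergic neurons, astrocytes, oligodendrocytes and their precursors, microglia, endothelium, ependyma, choroid plexus, striatal projection neurons, septum, thalamus and bed nucleus) were chosen with earlier results of these data known. Figures were drawn with matplotlib 3.10.9.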

Additional observations from a re-analysis of the deposited data

Results flagged for a closer look

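In 8 of 104 combinations of gene and group, 1 library lay far from the others of its group by Dixon's gap test; chance gives about 1 in 20 groups. Slc32a1 was at 292 CPM in female stressed 7 (179 to 230 in the others). Gabrd was at 117 CPM in female control 6 (31.1 to 70.2). In female control 1, Gabbr1 was at 1234 CPM (800 to 1001) and Gabbr2 at 307 CPM (173 to 230). Glra1 was at 6.42 CPM in female control 10 (0.342 to 2.42). Male control 5 stood apart for 2 genes, with Gabrg1 at 199 CPM (89 to 143) and Glra3 at 85.7 CPM (18.4 to 51.3). Glra3 was at 77.5 CPM in male stressed 7 (28.8 to 51.3). Female control 1 and 6 are among the 5 libraries rich in myelin transcripts. The causes were not tested.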

How the results depend on the processing

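The count of members called for stress and sex was 0 of 26 in all 7 contrasts under every setting run, and none of the values below that changed sign was called; for these the cause was not tested. Over all genes, the sex average called 35 genes with edgeR, 60 with DESeq2, 67 with limma voom and 12 and 19 within the number sets. For the number set, 14 members were called by DESeq2 and without the filter, and 17 by limma voom. The count was 18 without the 5 libraries rich in myelin transcripts and 13 to 15 with each library left out in turn. The shares of all genes in these fits are not given here. As libraries were left out in turn, Gabrq ran from 0.31 to 0.42. Gabra5 was also called without female stressed 2, Nlgn2 without male control 3 and Gabbr2 without female control 1. Library numbers did not pair the libraries: same-numbered control and stressed libraries had r of -0.357 to 0.671 in females and -0.0757 to 0.584 in males, and 1 of 9 in each sex correlated best with its own number. With the number as a replicate block 0 of 26 were called. At an unadjusted p under 0.05 there were 1 (stress, females), 3 (stress, males), 2 (interaction) and 0 (stress average). For sex in controls, stressed mice and the average there were 1, 4 and 3. The shares of all genes with the block are not given here. In that fit Slc12a2 was -0.35 ± 0.14 in females (p = 0.021, adjusted p = 1 by edgeR) and 0.49 ± 0.20 for the interaction (adjusted p = 0.680), and Gad1 in the stress average was 0.0085.

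The log2 values of the genes named in full that changed sign or moved were as follows. With limma voom, Gad1 was 0.026 for stress in females, -0.0054 in males, -0.031 for the interaction, 0.010 for the average and -0.0046 between number sets; Gabra2 in females was -0.077, Gphn in the average -0.0029, and male minus female in the average -0.10 for Slc12a2 and 0.052 for Slc12a5. Without the 5 libraries rich in myelin transcripts, Gad1 was 0.011 in females, -0.042 in males, -0.053 for the interaction and -0.031 between sets; Gabra2 in females was -0.029, Gad2 in the interaction -0.0063, Gphn in the average -0.0021, Slc12a5 by sex 0.037, the ratio of Gabbr1 to Gabbr2 in females -0.023 and that of Glra3 to Glra2 by sex in controls -0.094; r was 0.779 for Gabre with Gabra3, -0.811 for Gabrd with Gabrq and -0.801 for Slc12a2 with Slc12a5.

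Among libraries from 6, females gave 0.036 for Gad1 and -0.043 for Slc32a1, males 0.017 for Gphn, the interaction 0.16 for Slc32a1, and the average 0.073 for Gad1 and -0.014 for Slc12a5. Male minus female there was -0.093 for Slc12a2 in stressed mice and, in the average, -0.26 for Slc12a2, 0.050 for Slc12a5 and 0.016 for Gabra2; r was 0.948 and 0.922 for Gabre with Gabra3 and Gabrq and 0.755 for Gabra4 with Gabrb1. Among libraries up to 5, females gave -0.060 for Gad2; males -0.090 for Gad1, -0.014 for Gad2, -0.079 for Slc32a1 and -0.19 for Gabra2; the interaction -0.036 for Gad1 and -0.21 for Gabra2; and the average 0.090 for Gabrd, -0.037 for Gad2, -0.083 for Gabra2 and -0.014 for Gphn. Male minus female there was 0.0043 for Slc12a2 and 0.086 for Gabra2 in controls, and -0.0034 for Slc12a5 and -0.12 for Gabra2 in stressed mice; r was 0.712 for Gabre with Gabra3, -0.752 for Gabrd with Gabrq, 0.782 for Gabra4 with Gabrb1 and -0.100 for Slc12a2 with Slc12a5. Other uncalled values changed sign within a set too. Among libraries up to 5 these included Gabrg1 (-0.14), Gabrb1 (-0.16) and Nlgn2 (0.11) in females, and Gabrb2 (-0.15), Glra3 (-0.14), Gabrg1 (-0.026) and Gabbr2 (-0.00073) in males. Among those from 6 they included Gabrb2 (0.16), Gabbr1 (-0.074), Gabra4 (-0.029), Gabre (0.24), Slc6a11 (0.13) and Gabrd (-0.47) in females, Gabra4 (0.064) in males and Gabrd by sex in controls (-0.13). Of the 26 members, 7 had the other sign among libraries up to 5 for stress in females, 9 in males, 13 in the average and 3 in the interaction, and 10, 3, 6 and 6 among those from 6. For sex in controls, stressed mice and the average it was 7, 3 and 2 up to 5 and 7, 5 and 7 from 6. Without the 5 libraries rich in myelin transcripts the numbers for stress were 4, 2, 5 and 4, and with limma voom they were 6, 2, 3 and 5. DESeq2 and its size factors in edgeR gave 0.0041 and 0.00546 for Gphn in males, 0.0012 each for Slc32a1 in the interaction, and -0.0043 and -0.0042 for Gad1 between sets, where no filter gave -0.010. Exchanging libraries within number sets gave -0.015 for Gabbr1 to Gabbr2 in females.

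With each library left out in turn, stress in females ran from -0.040 to 0.016 for Gad1, -0.036 to 0.061 for Gad2, -0.047 to 0.083 for Slc32a1, -0.014 to 0.10 for Gabra2 and -0.0083 to 0.044 for Gphn. In males it ran from -0.037 to 0.047 for Gad1, -0.035 to 0.081 for Slc32a1 and -0.033 to 0.053 for Gphn. The interaction ran from -0.024 to 0.058 for Gad1, -0.065 to 0.064 for Slc32a1, -0.026 to 0.21 for Gabra2 and -0.053 to 0.034 for Gphn, and the stress average from -0.025 to 0.018 for Gad1, -0.015 to 0.051 for Slc32a1, -0.015 to 0.033 for Slc12a5 and -0.0072 to 0.036 for Gphn. Male minus female for Gabra2 ran from -0.15 to 0.021 in controls, -0.083 to 0.15 in stressed mice and -0.071 to 0.046 in the average, where Slc12a5 ran from -0.044 to 0.014. Gad1 between sets ran from -0.034 to 0.026. Ratio differences ran from -0.048 to 0.22 (males) and -0.22 to 0.020 (sex, controls) for Slc12a2 to Slc12a5, -0.055 to 0.0051 (females) and -0.025 to 0.039 (sex, controls) for Gad1 to Gad2, -0.028 to 0.043 (females) for Gabbr1 to Gabbr2 and -0.018 to 0.18 (sex, controls) for Glra3 to Glra2. Depth limits Glra1 most, which had 0 counts in 2 libraries.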
